A study of Mus musculus with 12 samples.

Results

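Chemokines and their receptors were read from the table of normalized read counts, as every gene whose symbol begins with Ccl, Cxcl, Ccr, Ccrl, Cxcr, Cx3cl or Cx3cr followed by a digit. The rule found 58 of the 23479 genes in the table, 37 of them ligands and 21 receptors. Total RNA had been sequenced from myeloid-derived suppressor cells, which are immature cells that accumulate with a tumour and hold back T cell responses. All 4 groups were C57BL/6 mice carrying established B16 melanomas, and the cells were purified from their spleens by flow cytometry. The monocytic population (M-MDSC) and the polymorphonuclear, neutrophil-like population (PMN-MDSC) were each taken from untreated mice (Ctrl) and from mice lymphodepleted (LD) with cyclophosphamide and fludarabine, with spleens collected 7 days after treatment. Each of the 4 groups holds 3 libraries, and the design names 3 mice for each treatment. The labels do not tie a library to a mouse, say whether mice were pooled, or give age, sex or doses, so p-values measure the spread between these libraries, which may in part be technical.

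Chemokines are small secreted proteins that bind membrane receptors coupled to inhibitory G proteins and steer the movement of leukocytes. Inflammatory monocytes leave the bone marrow through Ccr2. Neutrophils are held in the marrow by Cxcr4 and mobilised through Cxcr2. Interferons induce the ligands of Cxcr3, which draw activated T cells and NK cells, and Ccrl2 is an atypical receptor that presents the chemoattractant chemerin without signalling in the manner of the classical receptors.

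Cxcl10, Cxcl9, Ccrl2 and Ccl3 were the 4 members with a call after lymphodepletion or between its effects in the populations. The 250 bases before the first start that the RefSeq table (GRCm38.p6) gives for each are shown so that the results can be read beside the sequence in front of the gene. All 4 windows lie on the minus strand and read 5′ to 3′ towards the gene. Capitals mark matches, on either strand, to the interferon response pattern TTTCNNTTTC or to the NF-kB consensus. The Cxcl10 window is chr5:92348890-92349139, that of Cxcl9 is chr5:92328080-92328329, that of Ccrl2 is chr9:111057519-111057768 and that of Ccl3 is chr11:83649379-83649628.
Cxcl10: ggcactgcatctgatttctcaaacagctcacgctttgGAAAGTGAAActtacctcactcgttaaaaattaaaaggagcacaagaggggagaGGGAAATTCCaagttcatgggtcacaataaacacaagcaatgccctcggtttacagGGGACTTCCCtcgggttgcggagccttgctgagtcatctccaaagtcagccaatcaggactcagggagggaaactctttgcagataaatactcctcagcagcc
Cxcl9: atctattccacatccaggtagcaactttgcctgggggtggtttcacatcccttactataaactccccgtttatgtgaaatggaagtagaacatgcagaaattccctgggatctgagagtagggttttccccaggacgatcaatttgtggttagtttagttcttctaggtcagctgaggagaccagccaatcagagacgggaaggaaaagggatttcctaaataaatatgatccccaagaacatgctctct
Ccrl2: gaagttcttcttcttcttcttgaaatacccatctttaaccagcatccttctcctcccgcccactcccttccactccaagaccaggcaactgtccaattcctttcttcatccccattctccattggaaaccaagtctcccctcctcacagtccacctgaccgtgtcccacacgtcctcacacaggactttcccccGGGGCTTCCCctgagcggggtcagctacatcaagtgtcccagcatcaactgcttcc
Ccl3: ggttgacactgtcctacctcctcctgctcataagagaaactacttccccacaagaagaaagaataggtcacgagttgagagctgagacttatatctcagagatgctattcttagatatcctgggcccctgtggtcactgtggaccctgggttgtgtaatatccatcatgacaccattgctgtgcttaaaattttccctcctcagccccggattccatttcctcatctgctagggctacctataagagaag

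Of the 22 members tested, 16 had a window in that table. The interferon response pattern stood in 1 of the 16, that of Cxcl10, and in 2.97% of all 32817 windows of this length. The NF-kB consensus stood in 5 of the 16 (Ccl9, Ccr3, Ccrl2, Cxcl10 and Cxcl2) and in 3.9% of all windows, and it occurred at separate places in the Cxcl10 window. The interferon gamma pattern TTCNNNGAA stood in none of the 16 and in 7.01% of all windows, and the PU.1 core GAGGAAG in 1 of the 16 and in 10.6% of all windows. Ccrl2 has 3 starts in the table, and the match lies before the first. These are matches of letters only.

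Before any test, 49 of the 58 members had at least 1 read in at least 1 library, namely all 21 receptors and 28 of the 37 ligands. The 9 ligands without a read were Ccl8, Ccl12, Ccl19, Ccl21a, Ccl21b, Ccl21c, Ccl26, Ccl27b and Cxcl5, at totals of 8906045 to 16242926 reads a library. A count of 0 over the 3 libraries of a group allows up to 3 reads, or 0.687 normalized counts in Ctrl M-MDSC, 0.840 in LD M-MDSC, 1.09 in Ctrl PMN-MDSC and 1.41 in LD PMN-MDSC. Only 22 members, 11 ligands and 11 receptors, reached the mean of 10 normalized counts over the 12 libraries that was required for testing. Just inside this minimum were Ccl4 at a mean of 12.4, Ccl5 at 11.5 and Ccl2 at 10.004, and just outside were Ccl27a at 4.32, Ccr7 at 3.86 and Ccr9 at 2.86. A member that is high in a single group can pass on that group alone. The limit that a count of 0 allows covers counting error only, since reads without molecular identifiers are not independent molecules.

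The labelled cell types were checked against markers outside the family. Of 8 other monocyte markers tested, 7 were higher and 1 lower in Ctrl M-MDSC than in Ctrl PMN-MDSC, and all 11 neutrophil markers tested were lower in M-MDSC (limma, adjusted p under 0.05). The summed level of the 12 neutrophil markers, Cxcr2 included, was 9038 to 10882 in Ctrl M-MDSC and 20259.7 to 85387 in LD M-MDSC, the highest value in library 001, against 497519 to 523444 in Ctrl PMN-MDSC and 812740.0 to 915183 in LD PMN-MDSC. None of the 12 was at 0 throughout a group. The LD libraries numbered 001 also stood apart in the summed level of 6 cell-cycle markers, at 12198 in M-MDSC against 3559 and 4949 in the other LD libraries and 1082 to 1329 in Ctrl, and at 9584 in PMN-MDSC against 1868 and 2907 in LD and 2479.9 to 3229 in Ctrl. Results that change without these libraries are given with their values.

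The levels differed mainly by population. Cxcr2 was listed at 26529 to 32521 normalized counts in the 6 PMN-MDSC libraries and at 8.43 to 89.1 in the 6 M-MDSC libraries, and Ccr2 at 10069 to 13959 in M-MDSC and 165 to 493 in PMN-MDSC. To set genes side by side, levels were divided by the length of all exons that GENCODE lists for a gene, over all its transcripts. Which transcripts are expressed was not considered, so ranks between genes depend on this length. Per kilobase of exon, the mean levels in Ctrl PMN-MDSC were 9692 for Cxcr2, 7899 for Ccl6, 3996 for Cxcr4, 3202 for Ccr1 and 155 for Cxcr1. In Ctrl M-MDSC they were 2214 for Ccl6, 1903 for Ccr2, 839.7 for Ccl9, 834 for Cx3cr1, 286 for Cxcr4 and 88.2 for Ccr1. The first and second places in Ctrl M-MDSC overlapped between libraries (1873 to 2697 for Ccl6 and 1809.6 to 2065 for Ccr2), as did those of Ccl9 and Cx3cr1 (738.8 to 1011 and 813 to 859). Cxcr2, Ccl6, Cxcr4 and Ccr1 also led in LD PMN-MDSC, followed by Cxcl10 at 58.8 per kilobase (44.8 to 69.2 over the libraries), Cxcr1 at 54.9 (20.7 to 114, the highest in LD 001) and Ccr2 at 44.7 (24.5 to 59.0), whose libraries overlapped.

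**Figure D1:**
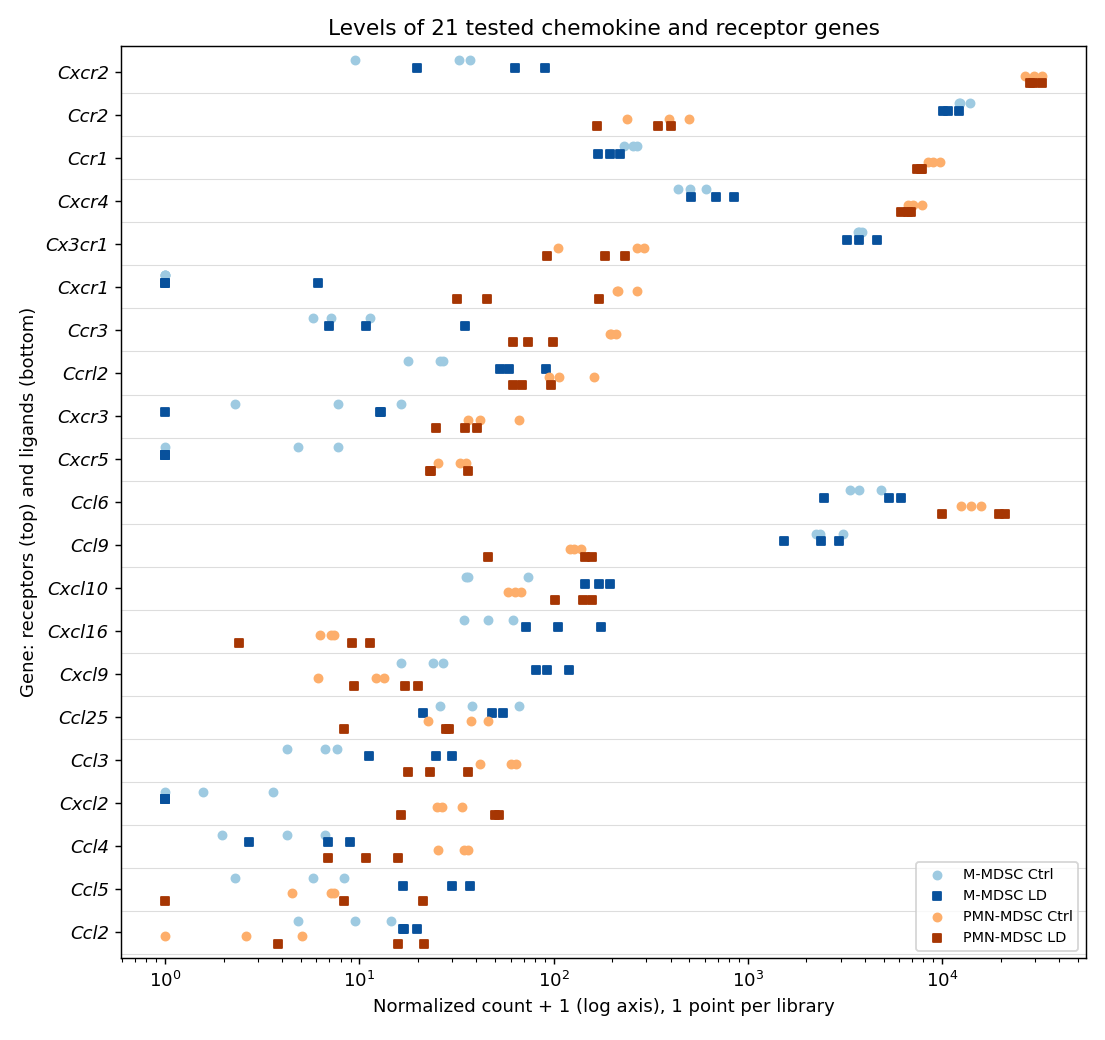
Normalized count plus 1 of 21 of the 22 tested members on a log axis, with 1 point for each of the 12 libraries and a colour and marker for each of the 4 groups. Receptors are at the top and ligands at the bottom. Cxcr2 lies between 8.43 and 89.1 in M-MDSC and between 26529 and 32521 in PMN-MDSC, and Cxcl10 is the gene whose LD points lie above the Ctrl points in both populations.

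In M-MDSC, lymphodepletion was followed by higher levels of both interferon-inducible Cxcr3 ligands that could be tested and of Ccrl2. These were 3 of the 22 tested members (13.6%), where 3.01% of the 11122 genes tested were called in either direction and 2.54% as higher. The 3 comprised 2 of 11 ligands and 1 of 11 receptors, and no member was called lower (0.468% of all genes were). Their rise lay between 2.84-fold and 4.41-fold on the log2(normalized count + 1) scale, on which changes of low genes are understated. Each limma SE and p-value, here and below, rests on 1 spread per gene estimated over all 4 groups. In sorted bulk cells, a change in the share of cells that express a gene and a change in RNA per cell cannot be told apart.

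Cxcl10, which encodes a ligand of Cxcr3 (chr5:92346638-92348889), was listed at 35.0, 72.7 and 34.2 normalized counts in the Ctrl libraries 001, 002 and 003, and at 169.5, 193 and 144 in the LD libraries of M-MDSC. Every LD library was above every Ctrl library, and the log2 difference was 1.89 ± 0.31 (SE, limma adjusted p = 0.00304). Cxcl9, a nearby gene on the same strand (chr5:92321347-92328079) and another Cxcr3 ligand, was at 25.9, 15.3 and 23.0 in Ctrl and at 119.5, 91.7 and 79.8 in LD. The groups were separate, with a log2 difference of 2.14 ± 0.47 (SE, limma adjusted p = 0.0214). Ccrl2 (chr9:111054486-111057519) was at 16.9, 24.9 and 25.8 in Ctrl and at 58.0, 51.8 and 90.6 in LD, again without overlap, and differed by 1.51 ± 0.34 (SE, limma adjusted p = 0.0252). The Cxcl10 call held without any single library. The Cxcl9 call was lost without any of the 3 Ctrl M-MDSC libraries, LD 001 or LD 003 (limma adjusted p of 0.0532 to 0.0995) and without both LD libraries numbered 001 (0.0626) or with no minimum (0.0623), and that of Ccrl2 without any of the same 5 libraries (limma adjusted p of 0.051 to 0.112). The log2 difference stayed at 1.93 or more for Cxcl9 and 1.27 or more for Ccrl2 when a library was left out.

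The third Cxcr3 ligand, Cxcl11, had 33 reads in all and was not tested. Exons of Cxcl10 share 133 bases with Art3 on the opposite strand, and the strand of the libraries is not stated, so that reads there cannot be assigned. Art3 itself was listed at 0 to 2.90 in M-MDSC, at 1.76 to 3.19 in Ctrl PMN-MDSC and at 1.35, 25.0 and 14.0 in LD PMN-MDSC. The same limit holds for Cxcl10 in PMN-MDSC, which is described below.

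Markers of other cell types differed in the same libraries. Of 8 tested macrophage markers, 3 were higher in LD M-MDSC by limma (C1qa by 2.04 ± 0.50, C1qc by 1.63 ± 0.40 and Vcam1 by 1.79 ± 0.45, log2 ± SE). The median log2 difference of the 8 was 1.49. An unadjusted limma p under 0.05 was found for 7 of them, among which Emr1 was lower. The summed level of the 9 macrophage markers in the table was 1968 to 2267 in Ctrl and 1801 to 2145 in LD, with none at 0 throughout a group. Most of that sum is Emr1, at 1825 to 2077 in Ctrl and 1387 to 1725 in LD. The dendritic cell sum of 8 markers was 1160.2 to 1441 in Ctrl and 1737 to 1952 in LD. Itgax supplied 504 to 786 of it in Ctrl and 1071 to 1265 in LD. Itgax rose by 0.88 ± 0.16 and was the only 1 of 6 tested dendritic cell markers that was called. Of the 11 neutrophil markers outside the family, 6 were called higher and 1, Mmp8, lower (-0.89 ± 0.17) in LD M-MDSC, and their sum is given above. As a share of the PMN-MDSC mean under the same treatment, the neutrophil gene S100a9 was at 0.713% to 1.04% in Ctrl M-MDSC and at 1.74% to 10.3% in LD M-MDSC, and Cxcr2 was at 0.0285% to 0.122% in Ctrl and at 0.0621% to 0.296% in LD. Ccrl2 stood at 14.1% to 21.5% of that mean in Ctrl M-MDSC and at 69.4% to 121.5% in LD M-MDSC, where the PMN-MDSC mean was itself lower than in Ctrl. Against the Ctrl PMN-MDSC mean throughout, the LD M-MDSC libraries were at 4.12% to 24.4% for S100a9 and at 43.2% to 75.6% for Ccrl2. Csf3r, another neutrophil marker on the list, did not rise. It was at 2.76% to 2.97% of the Ctrl PMN-MDSC mean in Ctrl M-MDSC and at 2.3% to 2.8% in LD M-MDSC (-0.21 ± 0.10, not called). Against the lower LD PMN-MDSC mean, Csf3r was at 3.72% to 4.54% in LD M-MDSC. Of 6 cell-cycle markers, 5 were called higher in LD M-MDSC, and their sum was 1082 to 1329 in Ctrl and 3559 to 12198 in LD, with none at 0 throughout a group. The part of other cell types in the 3 calls was not tested beyond these values.

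Other members had separate groups in M-MDSC without passing the test. Ccl5, a ligand of Ccr1, was at 1.30, 4.78 and 7.29 in Ctrl and at 36.2, 28.9 and 15.8 in LD. The groups were separate, but the log2 difference of 2.47 ± 0.94 had a limma adjusted p of 0.222, or 0.0406 with M-MDSC fitted alone. The sum of 8 NK cell markers, cells known to make Ccl5, was 52.5 to 112 in Ctrl and 96.5 to 121 in LD, and that of 10 T cell markers 10.4 to 22.008 and 14.8 to 27.5. Of these markers, 1 and 3 were at 0 throughout LD M-MDSC. Most of the NK cell sum is Klrk1, at 34.4 to 86.1 in Ctrl and 83.7 to 103.6 in LD (0.54 ± 0.64, limma adjusted p = 0.86). Cxcl16, a transmembrane ligand of Cxcr6, was at 61.0, 33.5 and 44.9 against 175, 104 and 70.9 (1.25 ± 0.58, limma adjusted p = 0.369). Ccl2, the main ligand of Ccr2, was at 8.43, 3.83 and 13.5 against 15.9, 18.7 and 15.8 (1.03 ± 0.79, limma adjusted p = 0.72). All 3 of these ligands were higher in every LD library than in any Ctrl library. Among the 22 members, 9 had separate groups, against 23.1% of all genes tested. Of these, 7 were higher in LD (10.6% of all genes) and 2, Ccr1 and Ccr2, lower (12.4%). Ccl5 had a group mean above 10 in LD M-MDSC only (27.0), and Ccl2 in the LD groups only (16.8 in M-MDSC and 12.8 in PMN-MDSC). Both thus reached the minimum for testing through libraries in which they are high, so their place among the 7 is no separate support. The receptor Ccr2 itself was at 12407, 12233 and 13959 in Ctrl and 10069, 12135 and 10762 in LD, which differed by -0.23 ± 0.28 on the log2 scale (limma adjusted p = 0.86). Ccr1, from the same cluster of receptor genes, was at 266, 228 and 256 in Ctrl and at 195, 167 and 218 in LD (-0.37 ± 0.10, limma adjusted p = 0.0726), which was called lower by DESeq2 (adjusted p = 0.0304), by limma with sample weights (adjusted p = 0.0106) and by limma without LD 003 (adjusted p = 0.0442). Without an adjustment, 8 members were higher and 2 lower at a p under 0.05. Beside the count of 0 lower by limma, edgeR called 0 and DESeq2 called 2. The median log2 difference of the 22 members was 0.45 and that of all genes -0.04.

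**Figure D2:**
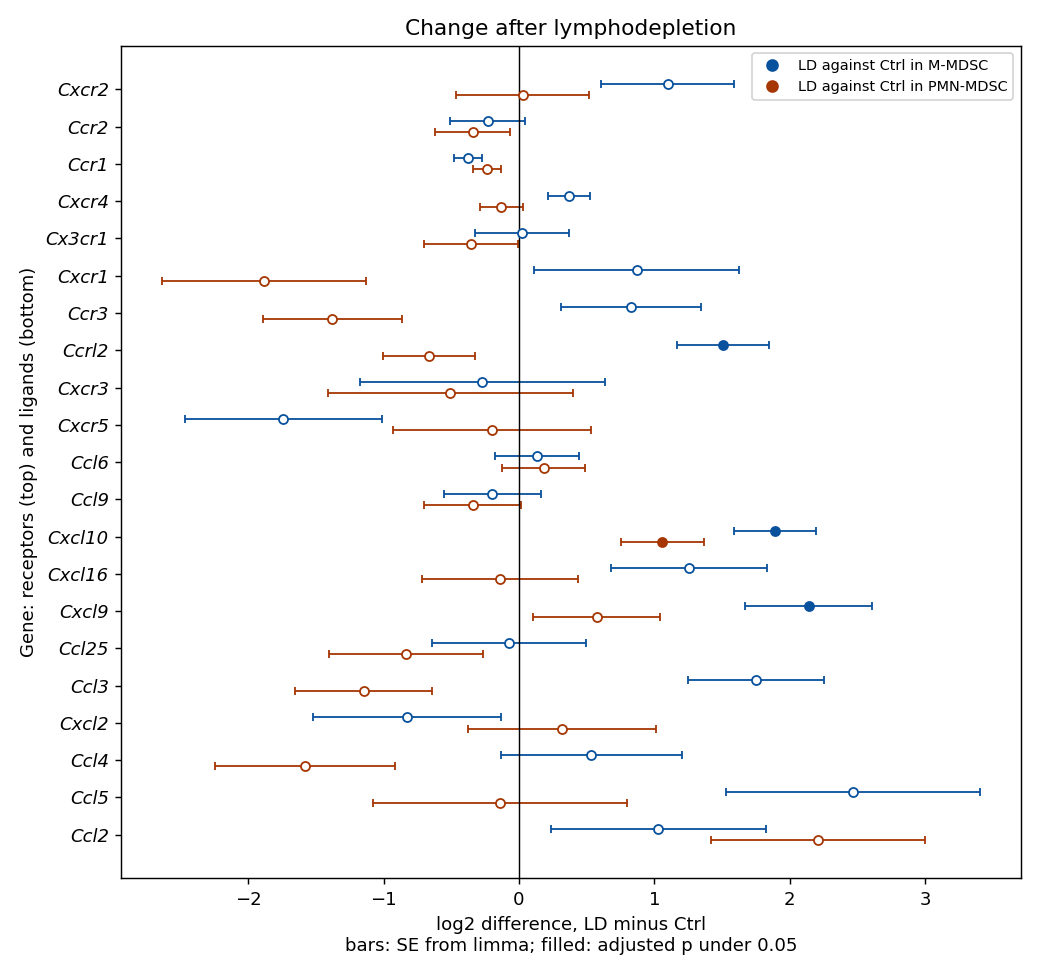
Log2 difference between LD and Ctrl for 21 of the 22 tested members in each population, with bars for the SE from limma and filled points for an adjusted p under 0.05. Filled points are Cxcl10 at 1.89, Cxcl9 at 2.14 and Ccrl2 at 1.51 in M-MDSC and Cxcl10 at 1.06 in PMN-MDSC.

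In PMN-MDSC, Cxcl10 was the single member that rose after lymphodepletion, and no member was called lower. That is 1 of 22 members (4.55%), where 15.7% of all genes were called, 7.17% as higher and 8.51% as lower. Cxcl10 was at 62.2, 57.1 and 67.0 in the Ctrl PMN-MDSC libraries and at 141, 156 and 101 in the LD libraries, each above all Ctrl libraries. It rose 2.08-fold, by 1.06 ± 0.31 on the log2 scale (SE, limma adjusted p = 0.0305). The call was lost without any of the 3 Ctrl PMN-MDSC libraries, LD 001 or LD 002 (limma adjusted p of 0.0551 to 0.0895) and without both LD libraries numbered 001 (0.0579), at log2 differences of 0.93 or more. Cxcl9 was at 5.10, 12.3 and 11.2 in Ctrl and 16.2, 19.1 and 8.41 in LD, and these overlapped (0.57 ± 0.47, limma adjusted p = 0.44).

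Receptors and ligands that were separate and lower in LD PMN-MDSC numbered 5 of 22, against 17.8% of all genes, and 1 was separate and higher, against 14.1% (31.9% either way). Ccr3, known as the eotaxin receptor of eosinophils, was at 207, 195 and 195 in Ctrl and at 60.9, 98.5 and 72.9 in LD. Its log2 difference was -1.38 ± 0.52 (SE, limma adjusted p = 0.0853). The Ccr3 value became a call by edgeR (adjusted p = 0.0483), by DESeq2 (0.0181), by limma with a pseudocount of 8 (0.0225), with PMN-MDSC fitted alone (0.00441) and without M-MDSC LD 001 (0.0277). Other eosinophil markers were low in these cells, with Epx and Prg2 at 0 in each Ctrl PMN-MDSC library and Il5ra at 0 to 6.12, so that the eosinophil sum of 195 to 213 in Ctrl and 64.9 to 98.5 in LD is mostly Ccr3 itself. Siglecf, also on the list, was not in the table under that symbol. The part of eosinophils in the Ccr3 level was not tested.

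Cxcr1, a receptor for neutrophil-attracting chemokines, was at 211, 269 and 214 in Ctrl PMN-MDSC and at 170.4, 44.1 and 30.9 in LD. All LD libraries were lower, with LD 001 nearest to Ctrl, and the log2 difference was -1.88 ± 0.75 (SE, limma adjusted p = 0.106). Without PMN-MDSC LD 001 it was -2.61 (limma adjusted p = 0.0284), without both LD libraries numbered 001 its limma adjusted p was 0.0192, with a pseudocount of 8 it was 0.015 and with PMN-MDSC fitted alone 0.0258. Cxcr2, its neighbour (chr1:74153989-74161246), was at 32479, 29616 and 26529 in Ctrl and at 29383, 28319 and 32521 in LD, with overlapping groups and a log2 difference of 0.03 ± 0.49. That SE is pooled with the M-MDSC libraries, where Cxcr2 was at 8.43 to 89.1, and is not the spread of these PMN-MDSC libraries. Their means were 29542 ± 2976 in Ctrl and 30074 ± 2185 in LD (SD, n = 3). The log2 difference of the ligands Ccl3 and Ccl4 was -1.15 ± 0.50 (limma adjusted p = 0.138) and -1.58 ± 0.67 (limma adjusted p = 0.122, and 0.0264 for Ccl4 with a pseudocount of 8). Ccl4 was at 24.5, 35.2 and 33.5 in Ctrl and 14.9, 5.88 and 9.82 in LD. It had reached the minimum for testing mostly through Ctrl PMN-MDSC, at a group mean of 31.1. Ccr1, at 9746, 9009 and 8455 against 7852, 7821 and 7419.6, was the fifth member with separate groups, at -0.23 ± 0.10 (limma adjusted p = 0.144).

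Ccl2 was listed at 4.08, 0 and 1.60 in Ctrl PMN-MDSC and at 14.9, 20.6 and 2.80 in LD, with LD 003 inside the Ctrl range. Its log2 difference was 2.21 ± 0.79 (limma adjusted p = 0.0735), which became a call without LD 003 (limma adjusted p = 0.0272), without Ctrl 001 (0.0478) and by DESeq2 (0.0428). Without an adjustment, 2 members were higher and 5 lower at a p under 0.05, and edgeR and DESeq2 each called 1 lower, Ccr3. The median log2 difference was -0.22 over the members and -0.05 over all genes.

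**Figure D3:**
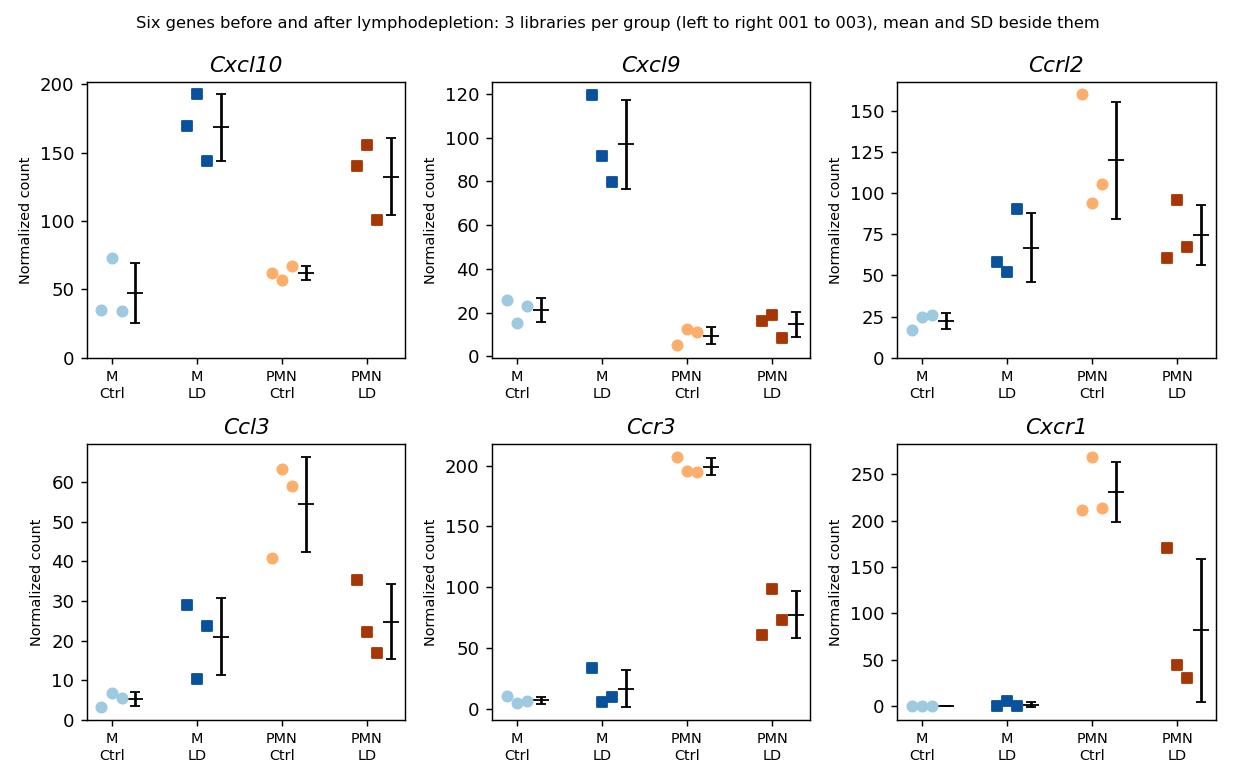
Normalized counts of Cxcl10, Cxcl9, Ccrl2, Ccl3, Ccr3 and Cxcr1 in the 4 groups on linear axes, with 1 point per library in the order 001 to 003 and the mean and SD beside them. The means of Ccrl2, Ccl3, Ccr3 and Cxcr1 show the opposite order of LD and Ctrl in the 2 populations. Points of LD and Ctrl overlap for Ccrl2 in PMN-MDSC and for Ccr3 and Cxcr1 in M-MDSC. In M-MDSC, Cxcr1 was above 0 only in LD 002, at 5.09, and the higher LD mean of Ccr3 is mostly LD 001, at 34.0. The LD 001 point of Cxcr1 in PMN-MDSC, at 170.4, stands above the other LD points at 44.1 and 30.9.

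The change after lymphodepletion differed between the populations for Ccrl2 and Ccl3. They are 2 of the 22 members (9.09%), where 2.25% of all genes were called in this comparison and 1.18% as a higher change in M-MDSC. Ccrl2, described above in M-MDSC, was at 160.2, 94.0 and 105 in Ctrl PMN-MDSC and at 60.9, 95.6 and 67.3 in LD. Those groups overlapped, and the change there was -0.67 ± 0.34 (limma adjusted p = 0.2). The difference of the 2 changes was 2.17 ± 0.48 (SE, limma adjusted p = 0.0328). Ccl3, a ligand of Ccr1 (chr11:83647844-83649355), was at 3.24, 6.70 and 5.61 in Ctrl and 29.0, 10.2 and 23.6 in LD M-MDSC. In PMN-MDSC it was at 40.8, 63.3 and 59.1 in Ctrl and 35.2, 22.1 and 16.8 in LD. Neither change passed alone (1.75 ± 0.50, limma adjusted p = 0.0798, and -1.15 ± 0.50, 0.138), and their difference was 2.90 ± 0.71 (SE, limma adjusted p = 0.0491). The Ccl3 change in M-MDSC was called by DESeq2 (adjusted p = 0.0103), by limma with sample weights (0.0188) and by limma without M-MDSC LD 002 (0.0336).

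Both calls depended on single libraries. That of Ccrl2 was lost without any Ctrl library of either population or LD 003 of either (limma adjusted p of 0.0515 to 0.0833), at log2 differences of 1.94 or more, and with no minimum (0.0559). That of Ccl3 was lost without any one library except M-MDSC LD 002 and PMN-MDSC LD 001 (limma adjusted p of 0.0667 to 0.119), and also with a pseudocount of 0.5 (0.056), upper-quartile scaling (0.0517), a replicate block (0.0713) or no minimum (0.125). Ccl3 was at 5.96% to 12.3% of the Ctrl PMN-MDSC mean in Ctrl M-MDSC and at 18.7% to 53.3% of it in LD M-MDSC, or 41.3% to 117.4% of the lower LD PMN-MDSC mean. The difference of the changes was not called for Cxcl9 (1.57 ± 0.66, limma adjusted p = 0.229), Cxcl10 (0.83 ± 0.43, 0.333), Ccr3 (2.21 ± 0.73, 0.126) or Cxcr1 (2.75 ± 1.07, 0.19). It was called for Ccr3 by DESeq2 (adjusted p = 0.00793) and for Cxcr1 by limma without both LD libraries numbered 001 (adjusted p = 0.0337). The M-MDSC side of both is weak. Cxcr1 had 6 reads in M-MDSC, all in LD 002. Ccr3 was at 10.4, 4.78 and 6.17 in Ctrl M-MDSC and at 34.0, 5.94 and 9.85 in LD M-MDSC. No member was called lower by limma, and none had an unadjusted p under 0.05 in that direction.

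More members differed between the populations than between the treatments. In Ctrl, 19 of the 22 members were called between M-MDSC and PMN-MDSC (86.4%), at a background of 75.6% of all genes, with 7 higher in M-MDSC (38.8% of all genes) and 12 higher in PMN-MDSC (36.8%). All 11 receptors were called, 3 higher in M-MDSC and 8 higher in PMN-MDSC, and 8 of the 11 ligands, with 4 each way. In LD, 16 members were called (72.7%, background 74.8%), with 7 higher in M-MDSC (38.8% of all genes) and 9 in PMN-MDSC (36.1%). Groups were separate for 18 members in Ctrl, 6 of them higher in M-MDSC, and for 15 in LD, against 81%, 41.9% and 75.2% of all genes. The shares of members called either way were thus near those of all genes. In Ctrl, 54.5% of the members were called higher in PMN-MDSC, against 36.8% of all genes, and in LD 40.9% against 36.1%. The median log2 difference was -2.10 over the members and 0.06 over all genes in Ctrl, and -0.23 and 0.10 in LD.

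Ccr2 and Cx3cr1 were among the receptors higher in Ctrl M-MDSC. Ccr2 (chr9:124101950-124113557) was at 12407, 12233 and 13959 in M-MDSC and at 393, 237 and 493 in PMN-MDSC, so that log2 values differed by 5.16 ± 0.28 (SE, limma adjusted p = 4.3e-10). Cx3cr1, the fractalkine receptor of monocytes, was at 3665, 3871 and 3729 against 266, 105 and 291 (4.22 ± 0.35, limma adjusted p = 4.3e-08). The groups were separate for both, and in LD the log2 differences were 5.27 for Ccr2 and 4.59 for Cx3cr1. A 78-base overlap of Cx3cr1 exons with an antisense gene makes part of its reads uncertain.

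Receptors higher in Ctrl PMN-MDSC were led by Cxcr2, at 8.43, 31.6 and 35.9 in M-MDSC and 32479, 29616 and 26529 in PMN-MDSC. The log2 difference was -10.36 ± 0.49 (limma adjusted p = 1.2e-10), and -9.73 without M-MDSC Ctrl 001, and in LD it was -9.28 and, without M-MDSC LD 002, -8.64. Cxcr1 (chr1:74191785-74194631) had no read in Ctrl M-MDSC and 211, 269 and 214 normalized counts in Ctrl PMN-MDSC, which was at least 337-fold higher against the limit of 3 reads over the group. Ccr1, a receptor for Ccl3, Ccl5, Ccl6 and Ccl9 (chr9:123962124-123968692), was at 266, 228 and 256 against 9746, 9009 and 8455 (-5.18 ± 0.10, limma adjusted p = 1.1e-13). Ccr3 (chr9:124021972-124031689) was at 10.4, 4.78 and 6.17 against 207, 195 and 195 (-4.68 ± 0.52, limma adjusted p = 1.1e-06), and its difference in LD was -2.48, or -3.15 without M-MDSC LD 001. Cxcr4, the receptor that retains cells in the marrow, was at 437, 609 and 504 against 7888, 7093 and 6695 (-3.81 ± 0.16, limma adjusted p = 3.3e-11). In each of these 5 receptors the groups were separate in Ctrl and in LD. The LD difference of Cxcr1 was -5.10, or -5.97 without M-MDSC LD 002 and -4.38 without PMN-MDSC LD 001.

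The other 3 receptors higher in Ctrl PMN-MDSC were Cxcr3, Cxcr5 and Ccrl2. Cxcr3, the receptor for Cxcl9 and Cxcl10, had means of 7.78 ± 7.06 in M-MDSC and 47.0 ± 15.9 in PMN-MDSC (SD, n = 3), and its log2 difference of -2.81 became -2.05 without M-MDSC Ctrl 001 (limma adjusted p = 0.0636) and -3.46 without M-MDSC Ctrl 002. In LD it was -2.57, and -1.34 without M-MDSC LD 001 (limma adjusted p = 0.101) -3.19 without LD 002 or LD 003, and -1.19 without both LD libraries numbered 001 (limma adjusted p = 0.178), and the call was lost by edgeR (adjusted p = 0.0506) and with sample weights (0.0912). The sum of 10 T cell markers was 43.1 to 54.5 in Ctrl PMN-MDSC and 10.4 to 22.008 in Ctrl M-MDSC, with 1 marker at 0 throughout each of these groups. Cxcr5, which guides B cells into follicles, had means of 3.52 ± 3.38 and 30.2 ± 5.11 (SD, n = 3) and a log2 difference of -3.21, or -2.34 without M-MDSC Ctrl 001 and -3.81 without 003. In LD it had no read in M-MDSC and was at least 31.6-fold higher in PMN-MDSC. Exons of Cxcr5 share 110 bases with Bcl9l on the opposite strand, which was at 204 to 468 in all libraries. The sum of 8 B cell markers was 75.0 to 185 in Ctrl PMN-MDSC and 7.35 to 13.5 in LD PMN-MDSC, with none and 2 of them at 0 throughout the group, while Cxcr5 was at 24.5, 34.3 and 31.9 in Ctrl and 35.2, 22.1 and 22.4 in LD. Ccrl2 had means of 22.5 ± 4.92 and 119.9 ± 35.4 in Ctrl (SD, n = 3), with a log2 difference of -2.35. In LD it was the single receptor not called, at -0.17 ± 0.34 (limma adjusted p = 0.65).

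**Figure D4:**
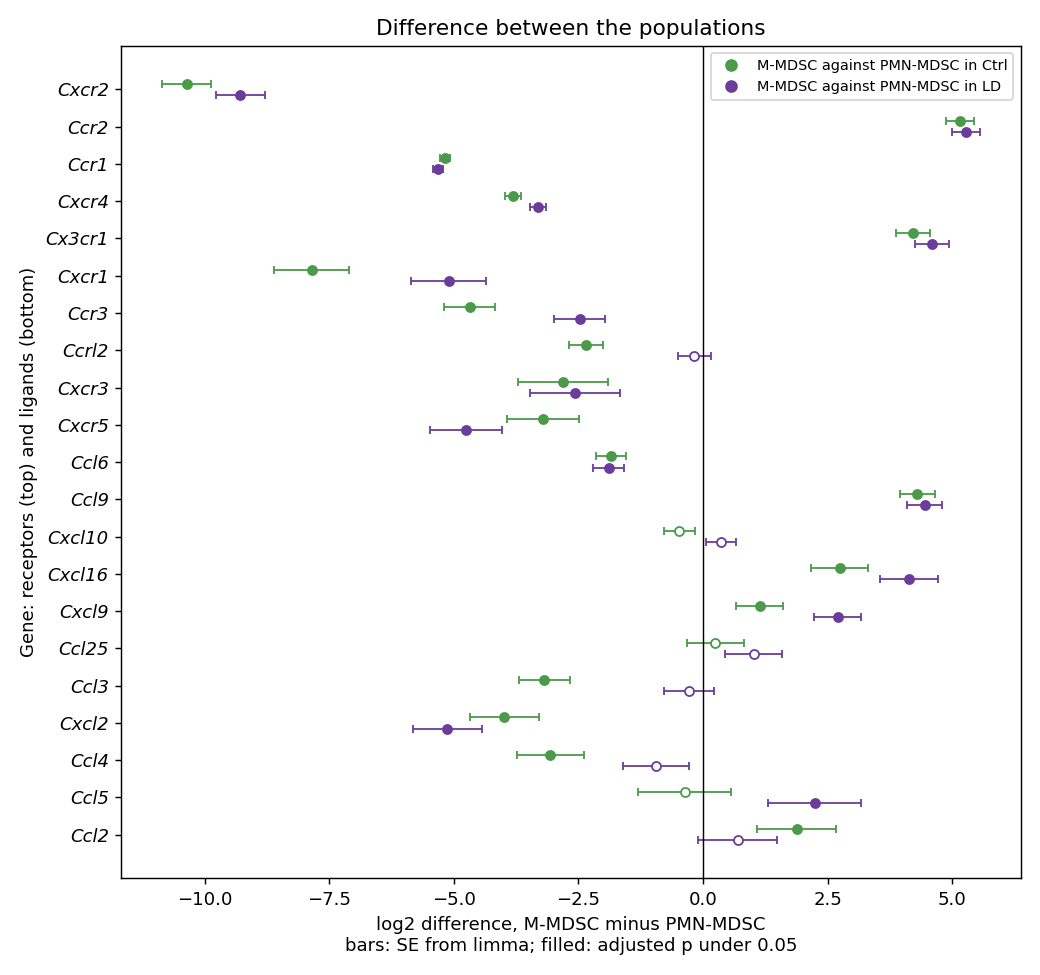
Log2 difference between M-MDSC and PMN-MDSC for 21 of the 22 tested members in Ctrl and in LD, with bars for the SE from limma and filled points for an adjusted p under 0.05. Values above 0 are higher in M-MDSC. Cxcr2 lies at -10.36 in Ctrl and -9.28 in LD, Ccr2 at 5.16 and 5.27, and Ccrl2 is called in Ctrl at -2.35 and not in LD at -0.17.

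Among the ligands, Ccl9, Cxcl16, Cxcl9 and Ccl2 were higher in Ctrl M-MDSC. Ccl9, a myeloid ligand of Ccr1 (chr11:83572919-83578636), was at 2249.7, 3078 and 2343 in M-MDSC and 126, 137 and 119.7 in PMN-MDSC. It was higher by 4.30 ± 0.36 on the log2 scale (limma adjusted p = 5.1e-08), and the difference was 4.45 in LD. Cxcl16 was at 61.0, 33.5 and 44.9 against 6.12, 5.27 and 6.38 (2.74 ± 0.58, limma adjusted p = 5.8e-04), and in LD the difference was 4.13, or 3.44 without PMN-MDSC LD 003. Its exons share 552 bases with Zmynd15 on the opposite strand, listed at 0 to 12.3. Cxcl9 had means of 21.4 ± 5.49 and 9.53 ± 3.87 in Ctrl (SD, n = 3) and a log2 difference of 1.14 ± 0.47 (limma adjusted p = 0.0387), and the difference was 2.70 in LD. The Ctrl call of Cxcl9 was lost without M-MDSC Ctrl 001 or 003, any LD M-MDSC library or PMN-MDSC Ctrl 001 (limma adjusted p of 0.0505 to 0.155), with a replicate block (0.0549), no minimum (0.0915) or upper-quartile scaling (0.0737), and with Ctrl fitted alone (0.0553).

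Ccl2 was at 8.43, 3.83 and 13.5 in Ctrl M-MDSC and at 4.08, 0 and 1.60 in Ctrl PMN-MDSC, overlapping, at 1.88 ± 0.79 (limma adjusted p = 0.0433). That call was lost without M-MDSC Ctrl 001 or 003, any LD M-MDSC library or PMN-MDSC Ctrl 002 or 003 (limma adjusted p of 0.0546 to 0.178), without both LD libraries numbered 001 (0.0541) with a replicate block (0.0525), a pseudocount of 8 (0.0894), no minimum (0.0953), upper-quartile scaling (0.06) and Ctrl fitted alone (0.0621). The log2 difference was 1.26 without PMN-MDSC Ctrl 002. Ccl5 was called in LD, at means of 27.0 ± 10.4 in M-MDSC and 9.21 ± 10.3 in PMN-MDSC (SD, n = 3) and a log2 difference of 2.24 ± 0.94 (limma adjusted p = 0.0421). Its groups overlapped, with 20.3, 7.35 and 0 in PMN-MDSC. Ccl5 had reached the minimum for testing only through LD M-MDSC, the group in which it is high. The call was lost without M-MDSC Ctrl 002, M-MDSC LD 001 or 002, PMN-MDSC Ctrl 001 or 003, or PMN-MDSC LD 003, where the log2 difference was 0.99 (limma adjusted p of 0.051 to 0.234), and by edgeR (adjusted p = 0.0921), DESeq2 (0.113) and limma with a pseudocount of 0.5 (0.051), no minimum (0.0888), upper-quartile scaling (0.0554) or LD fitted alone (0.0858). The difference was 3.20 without PMN-MDSC LD 001.

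Ccl6, Cxcl2, Ccl3 and Ccl4 were higher in Ctrl PMN-MDSC. Ccl6, a myeloid ligand of Ccr1 (chr11:83587882-83593087), had means of 3975 ± 771 and 14178 ± 1713 (SD, n = 3), a log2 difference of -1.84 ± 0.31 (limma adjusted p = 7.4e-05) that was -1.89 in LD. Cxcl2, a ligand of Cxcr2, was at 2.59, 0 and 0.561 in M-MDSC and 32.6, 25.5 and 23.9 in PMN-MDSC (-3.98 ± 0.69, limma adjusted p = 1.1e-04). In LD it had no read in M-MDSC and 48.7, 51.5 and 15.4 in PMN-MDSC, at least 45.9-fold higher. Ccl3 differed by -3.18 and Ccl4 by -3.06 in Ctrl, where means were 5.18 ± 1.77 against 54.4 ± 11.9 for Ccl3 and 3.27 ± 2.33 against 31.1 ± 5.75 for Ccl4 (SD, n = 3). In LD neither was called, at -0.28 ± 0.50 (limma adjusted p = 0.62) and -0.94 ± 0.67 (limma adjusted p = 0.21). Cxcl10 was called between the populations neither in Ctrl (-0.47 ± 0.31, limma adjusted p = 0.17) nor in LD (0.36 ± 0.31, limma adjusted p = 0.3). Ccl25, the thymic and intestinal ligand of Ccr9, passed in no comparison, at 24.9 to 65.1 in Ctrl and 20.3 to 53.5 in LD M-MDSC and at 21.4 to 44.8 and 7.35 to 28.05 in PMN-MDSC. Exons of Ccl25 share 204 bases with Elavl1 on the opposite strand, which was at 703 to 921.

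The receptors tested differed in how far their ligands were read in the same cells. Ccr1 and its ligands Ccl6 and Ccl9 were each listed at 44.9 normalized counts or more in every library, while another of its ligands, Ccl7, had 1 read in all. For Cxcr3, Cxcl10 was at 34.2 to 193 in the 12 libraries, Cxcl9 at 5.10 to 119.5 and Cxcl11 reached 10.8. For Ccr2, Ccl2 reached 20.6, and Ccl8 and Ccl12 had no read. For Cxcr1 and Cxcr2, Cxcl2 reached 51.5, Cxcl1 had 4 reads, Cxcl3 had 1 and Cxcl5 had none. Cxcr4 had its ligand Cxcl12 at 19 reads over the 12 libraries, Cx3cr1 had Cx3cl1 at 5, Cxcr5 had Cxcl13 at 15 and Ccr3 had Ccl11 at 1 and Ccl24 at 29, all of the latter in M-MDSC. In the opposite case, Cxcl16 was tested while its receptor Cxcr6 had 8 reads, and Ccl25 while Ccr9 had 39.

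The 27 members with reads below the minimum had highest values from 0.561 to 29.0 normalized counts. The highest was Ccr7, the lymph node homing receptor, at 29.0 in M-MDSC LD 001 and at 6.38 or less in the other 11 libraries. Next were Ccl27a with a highest value of 12.4, Cxcl11 with 10.8, Cxcr6 with 8.83, Ccr9 with 8.69, Ccr6 with 7.98 and Ccl24 with 7.88. Cxcl12 reached 5.91, Cxcl13 reached 5.88, Cx3cl1 reached 5.10, Ccr4 and Cxcl1 each reached 4.41, Ccl22 reached 4.35, and Cxcr7 (now Ackr3) reached 4.08. Ccrl1 (now Ackr4) reached 3.94, Ccr1l1 and Ccl1 each reached 3.83, Ccr10 reached 2.71, Ccl17 reached 2.64 and Ccr8 reached 1.91. The lowest were Ccl20 at 1.68, Cxcl14 at 1.60, Ccl7 at 1.40, Cxcl3 and Ccl28 at 0.879, and Ccl11 and Cxcl17 at 0.561. These members were not tested. Ccl24 had reads in all 6 M-MDSC libraries and in no PMN-MDSC library.

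Genes that work with the receptors were counted from lists. Of 25 tested signalling genes, limma called none after lymphodepletion in M-MDSC (3.01% of all genes), where 6 had an unadjusted p under 0.05 and the median log2 difference was 0.0038 against -0.04 for all genes. In PMN-MDSC 4 were higher (7.17% of all genes) and 4 lower (8.51%). Those higher in LD PMN-MDSC were the G protein subunits Gnb1 (0.47 ± 0.10) and Gnai2 (0.40 ± 0.12) and the small GTPases Rac2 (0.45 ± 0.13) and Cdc42 (0.36 ± 0.09). Those lower were the G protein subunit Gngt2 (-0.71 ± 0.11), the kinase Fgr (-0.41 ± 0.10) and the PI3-kinase subunits Pik3r5 (-0.38 ± 0.09) and Pik3cd (-0.35 ± 0.08). In Ctrl, 21 of the 25 were lower in M-MDSC than in PMN-MDSC (36.8% of all genes) and 3 higher (38.8%).

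Of 11 tested genes of receptor desensitisation, limma called none in LD M-MDSC (3.01% of all genes), where 3 had an unadjusted p under 0.05. In LD PMN-MDSC 2 were higher (7.17% of all genes), the regulator Rgs18 (0.56 ± 0.17) and the arrestin Arrb2 (0.34 ± 0.10), and 1 lower (8.51%), the receptor kinase Adrbk2 (-0.87 ± 0.25). Between populations in Ctrl, 9 were lower in M-MDSC (36.8% of all genes) and 1, Adrbk2, was higher (3.65 ± 0.25, 38.8% of all genes). Of 11 tested receptors for other chemoattractants, 1, the prostaglandin receptor Ptger4, rose in LD M-MDSC (0.80 ± 0.19, limma adjusted p = 0.0323), where 2.54% of all genes did. In LD PMN-MDSC the formyl peptide receptor Fpr2 (1.06 ± 0.26), the leukotriene receptor Ltb4r1 (0.80 ± 0.17) and the sphingosine phosphate receptor S1pr4 (1.001 ± 0.21) rose, and Gpr35 fell (-0.93 ± 0.13), so that 3 were higher and 1 lower against 7.17% and 8.51% of all genes. Of the other chemokine system genes outside the naming rule, 7 of 11 were in the table, and the 1 tested was Cmklr1, a receptor for chemerin. It was at 427, 402 and 323 in Ctrl M-MDSC and at 49.0, 10.5 and 23.9 in Ctrl PMN-MDSC (3.97 ± 0.42), and it was called after lymphodepletion in neither population.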

How the data were processed

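Total RNA libraries, with ribosomal RNA depleted per the labels' protocols, were analysed for 12 samples in 4 groups of 3. The authors deposited 1 table of normalized counts (a signal), in which the reads of each gene were divided by 1 size factor per sample. All values were whole multiples of the smallest value of their sample, to within 0.001 reads for 100% of values. Whole reads recovered this way came to 8906045 to 16242926 a library. Per the submitters' processing notes, DESeq2, HTSeq 0.6.1 and STAR 2.5.3a were used with build mm10, with roles and strand not given in the sources used here.

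Normalized counts plus 1 were put on the log2 scale, and the 11122 genes averaging at least 10 over the 12 libraries were fitted in R 4.3.3 by limma 3.58.1, with group means, a trend and 8 residual degrees of freedom. Two-sided p-values were adjusted by Benjamini-Hochberg over all genes tested, with a threshold of 0.05. The 5 comparisons were LD against Ctrl in each population, the difference of the 2 LD changes, and the populations against each other under each treatment. Comparisons that share a group share its libraries.

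Alternative settings took 0.5 or 8 as the pseudocount, a minimum of 50 or none, TMM or upper-quartile scaling, edgeR 4.0.16 quasi-likelihood and DESeq2 1.42.0 on the recovered reads, sample weights, a replicate block, 1 population or treatment fitted alone, and each library left out. Leaving out both LD libraries numbered 001 was added after seeing the data. The fits were also run on simulated counts in which all groups shared the mean of each gene, apart from set changes in LD M-MDSC. That simulation held neither the differences between populations nor the libraries that stand apart here, and no conclusion is drawn from it.

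The members, marker lists and pathway lists were chosen with earlier results of these data known. By rule, members called after lymphodepletion or in the difference of changes are named with each library, those called between populations in Ctrl with means, and the 6 largest differences each way with each library. Members that passed nowhere are named with ranges, and those below the minimum with their highest value. Values of Ccr1, Ccr2, Ccr3, Cxcr1, Cxcr2, Cxcl16, Ccl2, Ccl4, Ccl5 and Cxcr5 around lymphodepletion, of Ccl5 between populations in LD, and the genes named from other lists, were chosen after their values were seen. Coordinates are those of GENCODE for mm10. Figures were drawn with matplotlib 3.10.9 in Python 3.11.15. Values of 1 tested member are not reported here, though it enters the counts.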

Additional observations from a re-analysis of the deposited data

Results flagged for a closer look

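The change after lymphodepletion differed between M-MDSC and PMN-MDSC for 2 members by the test of the difference itself. For Ccrl2 the log2 change was 1.51 ± 0.34 in M-MDSC and -0.67 ± 0.34 in PMN-MDSC, a difference of 2.17 ± 0.48 (SE, limma adjusted p = 0.0328), with 3 of 3 LD libraries above all Ctrl libraries in M-MDSC and overlapping groups in PMN-MDSC. For Ccl3 it was 1.75 ± 0.50 and -1.15 ± 0.50, a difference of 2.90 ± 0.71 (SE, limma adjusted p = 0.0491), with 3 of 3 LD libraries above Ctrl in M-MDSC and 3 of 3 below Ctrl in PMN-MDSC.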

How the results depend on the processing

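Each result for a single member with an unadjusted limma p under 0.05 in the main fit was compared under each alternative that held it. Of these comparisons of a result with an alternative, 1278 kept direction and side of the threshold, 81 were no longer called, 25 became called and 0 changed sign. The call in the difference of changes was kept in 8 of 22 alternatives for Ccl3 and in 14 of 23 for Ccrl2. Cxcl10 in M-MDSC was called in all 24 alternatives, at log2 differences of 1.71 to 2.24. The 2 members called in the difference of changes became 1 with a pseudocount of 0.5, a minimum of 50, upper-quartile scaling or the replicate block, and 0 without a minimum, and leaving out 1 library gave 0 to 2. The 3 called after lymphodepletion in M-MDSC became 6 with DESeq2 and 5 with sample weights (1 to 6 without 1 library). The 1 called in PMN-MDSC became 4 with a pseudocount of 8, 2 with edgeR, 3 with DESeq2, 3 when PMN-MDSC was fitted alone and 2 without both LD libraries numbered 001 (0 to 2 without 1 library). The 19 called between populations in Ctrl and the 16 in LD became 11 and 10 of the 12 members that reach a minimum of 50, which tests fewer genes, and were 16 to 20 and 15 to 16 without 1 library. The cause of the other changes was not tested.

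Over all genes, the 335 calls in M-MDSC were 723 with DESeq2, 976 with sample weights and 533 with M-MDSC fitted alone, and the 250 calls in the difference of changes were 125 without a minimum, 699 with DESeq2 and 524 with sample weights. Upper-quartile scaling moved the median log2 difference between populations in Ctrl from 0.06 to -0.12. Replicate numbers were not taken as pairs in the main fit, which used group means, since the labels do not tie libraries to mice. The M-MDSC and PMN-MDSC libraries of a treatment may come from the same mice. The p-values between populations and for the difference of changes do not take this into account. Deviations of same-numbered M-MDSC and PMN-MDSC libraries correlated at -0.0368, 0.0542 and 0.135 in Ctrl and at 0.208, 0.125 and 0.0675 in LD. With the replicate block, 3 members were called in M-MDSC, 1 in PMN-MDSC, 1 in the difference of changes, 17 between populations in Ctrl and 16 in LD. In LD each library correlated best with its own number, a hint from the data and not from the design, and in Ctrl not every library did. Depth limits the 27 members read below the minimum.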

Other observations

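Neighbouring genes of a cluster did not always lean to the same population. In the receptor cluster on chromosome 9, Ccr1 and Ccr3 were higher in Ctrl PMN-MDSC, at log2 differences of -5.18 and -4.68, and Ccr2, further along the chromosome, was higher in Ctrl M-MDSC, at 5.16. In the ligand cluster on chromosome 11, Ccl9 was higher in Ctrl M-MDSC (4.30), while its neighbour Ccl6 (-1.84) and Ccl3 (-3.18) and Ccl4 (-3.06) were higher in Ctrl PMN-MDSC. Cxcr1 and Cxcr2 on chromosome 1 were both higher in PMN-MDSC. Paralogs in such clusters may share reads that the counting cannot assign.

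Summed over all members, the mean normalized counts of the receptors were 17691 in Ctrl and 16120.2 in LD M-MDSC and 47084 in Ctrl and 45149 in LD PMN-MDSC. Those of the ligands, most of which Ccl6 and Ccl9 supply, were 6734.5, 7428, 14547 and 17262 in the same order. Ccl6 itself was at 3363, 4841 and 3721 in Ctrl and 2456, 5311 and 6129 in LD M-MDSC, and at 15930.0, 14099 and 12506 in Ctrl and 9952, 19605 and 21030.2 in LD PMN-MDSC, where LD 001 is the lowest of the LD libraries in both populations.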
